A study of Flechtneria rotunda with 10 samples.

Results

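Desiccated cells of the green alga Flechtneria rotunda were compared with the culture they came from, using the 2 Dry and 2 Hydrated libraries of a series of 10. The comparison covered the 10467 of 17148 assembled genes that passed a filter on low counts. Both groups were strain SEV3VF49, grown for 6 weeks in BBM+WH medium (150 mL in a flask) and spotted as 40 µL drops on cover glass. Hydrated drops were collected at once, and no other treatment, mutation or transgene is given for either group. Dry drops had lost their liquid until flat, then spent another 11 h in the drying chamber, and were collected at about 24 h. RNA was sequenced after removal of ribosomal RNA with oligos. Separate flasks for the libraries of a stage are not stated in the labels; p-values then measure only how far these libraries spread, and that spread may be technical.

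Green algae that live in desert soils dry out with their surroundings and resume metabolism when wetted. In plants and algae that tolerate drying, some transcripts accumulate while water is lost and others are kept through the dry state. Sequencing reads how the RNA is divided among genes, not how much RNA a cell holds. In these bulk samples, fewer cells and less RNA per cell therefore cannot be told apart. The genes carry assembly identifiers only, so roles of single genes and marker genes of the alga are not given here.

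The library totals were 2923434 and 2540582 counts in hydrated and 2034134 and 2211630 in dry drops. With every library thinned to 2034134 counts, 13027 and 13222 genes had reads in the hydrated libraries, and 10742 and 11415 in the dry ones. At this depth 1200 genes had reads in both hydrated and neither dry library, and 226 in both dry and neither hydrated library. By its name the deposited table is limited to differentially expressed genes, and how these were picked is unknown here, so shares of genes are shares of that table. Calls, adjusted p-values, scaling factors and read shares below are computed within it as well, so they rest on that unknown choice. The late desiccation libraries stand apart from the series by the number of genes with reads (16728 and 16972). These were not thinned, and their totals were 3561519 and 5409194 counts. They enter below through the shared estimate of spread, the ordering of genes by read level and the values printed for that stage. The rehydrated libraries enter in the same ways and differ widely from each other. The first gene held 29.5% and 13.5% of their reads.

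The transcript pool of dry drops was rearranged far beyond the difference between replicates. The summed absolute difference in read share between a pair of libraries, divided by 2, gives the share of reads placed on other genes. It was 7.36% between the hydrated libraries and 8.31% between the dry ones. In the 4 pairs of a hydrated with a dry library it was 27.6% to 30.8%. A gene's level in CPM, its counts relative to the library's size on a scale set by TMM, differed by a median of 0.31 on the log2 scale between the hydrated libraries and 0.49 between the dry ones, but by 1.02 to 1.18 between stages (pseudocount 1). Differences of over 2-fold were found for 7.51% and 19.7% of genes within hydrated and within dry, and for 51.1% to 56.5% between stages. The dry pair was thus the more variable one, and both pairs were far closer than any pair across stages.

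By edgeR's quasi-likelihood test with Benjamini-Hochberg adjustment at 0.05, 4709 of the 10467 tested genes were called (45.0%). Of these, 2379 rose (22.7% of those tested) and 2330 fell (22.3%) on the TMM scale. Rising genes had a median of 14.0 CPM in hydrated and 63.7 CPM in dry drops, and falling genes one of 16.6 CPM in hydrated and 3.62 CPM in dry drops. From under 10 CPM in hydrated, 102 genes rose to over 100 CPM in dry and 3 of them to over 1000 CPM. In the other direction, 32 genes fell from over 100 CPM to under 10 CPM, and 0 fell that far from over 1000 CPM. With genes at 0 counts in a stage held at 3 counts over that stage, 384 rises and 176 falls were of at least 16-fold, and 79 and 16 of at least 64-fold. Depth bounds the falls more than the rises, since 225 falling and 67 rising genes had no counts in the lower stage.

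The balance of rises and falls belongs to the scale. Over the tested genes together, the log2 fold change had a median of -0.28 with TMM and of -1.07 with library totals alone. On library totals 1367 genes were higher and 4176 lower in dry drops. Each of those 1367 was also called higher on the TMM scale, and each of the 2330 falls was also called lower on totals. Library totals lower the fold changes by nearly the same amount in every gene, so this nesting follows largely from the change of scale. The number of falls was 1540 without dry replicate 1, and between 1713 and 1783 when another of the 4 libraries was left out.

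**Figure D1:**
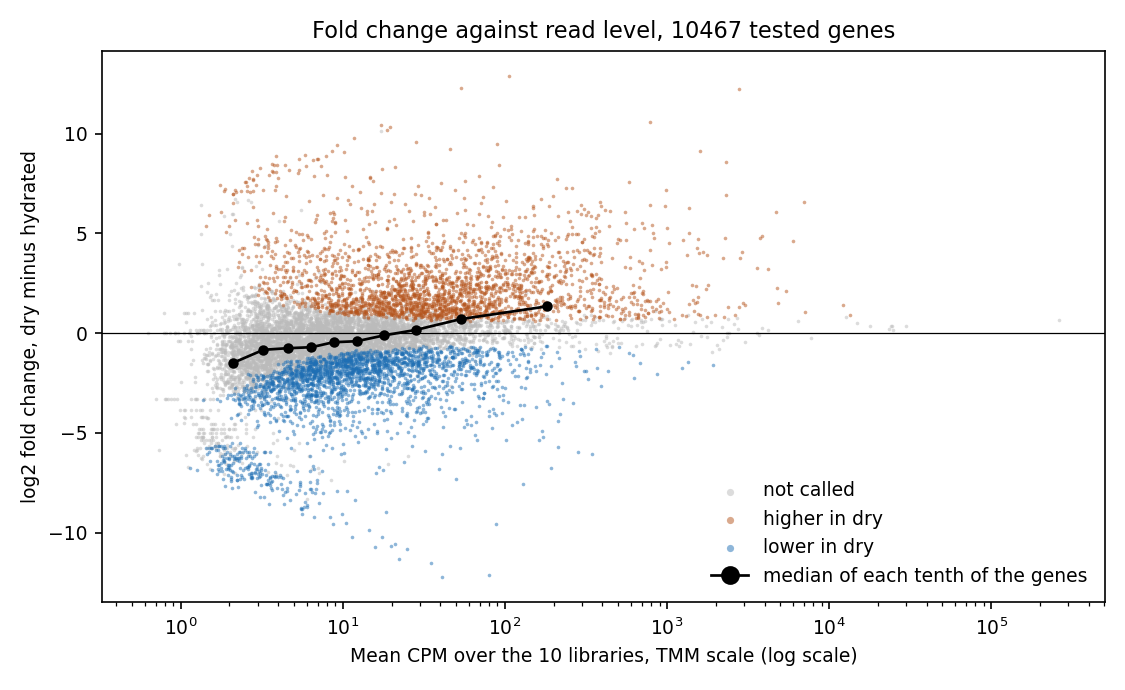
Log2 fold change of dry minus hydrated (vertical axis, TMM scale) against mean CPM over the 10 libraries (horizontal log axis) for the 10467 tested genes, 1 point a gene, coloured by the edgeR call. The black line joins the medians of the 10 deciles, which run from -1.49 at the lowest read level to 1.34 at the highest.

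The direction of change went with how many reads a gene had. In the decile with the most reads over all 10 libraries, 673 of 1047 genes rose (64.3%) and 117 fell (11.2%), with a median log2 fold change of 1.34. In the fifth decile 148 rose (14.1%) and 289 fell (27.6%), with a median of -0.46. In the lowest decile 30 rose (2.87%) and 146 fell (13.9%), with a median of -1.49. The median standard error there was 1.24, against 0.31 in the top decile. These deciles use the dry libraries themselves. Ordered instead by early and late desiccation alone, which this comparison does not contain, the top decile had 487 rises (46.5%) and 196 falls (18.7%), with a median of 0.64. The second decile then had 97 rises (9.26%) and 153 falls (14.6%), with a median of -0.84. The lowest decile broke the order, with 213 rises (20.3%), 115 falls (11.0%) and a median of -0.23. Both stages belong to the same drying series, so genes already raised there are placed higher by their own rise. This ordering is thus not independent of the change either. On library totals the top decile by all 10 libraries held more rises (463) than falls (211), and the other 9 deciles held more falls. With the ordering by early and late desiccation, the top decile on library totals held fewer rises (284) than falls (339), with a median of -0.17.

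Reads in dry drops were less concentrated at the very top of the ranking and more concentrated below it. Within each library the genes were ordered by read share, and the shares of rank classes were added. The first gene held 29.7% and 27.3% of the reads in hydrated and 25.7% and 24.3% in dry libraries. Ranks 2 to 10 held 21.1% ± 0.67 in hydrated and 15.9% ± 1.16 in dry drops (SD, n = 2 each). The middle of the ranking had the opposite order. Ranks 11 to 100 held 19.5% ± 0.56 in hydrated and 25.9% ± 0.84 in dry drops, and ranks 101 to 1000 held 18.1% ± 1.96 and 24.2% ± 0.07 (SD, n = 2 each). The remaining genes, those below rank 1000, held 12.9% ± 0.97 in hydrated and 9.04% ± 1.21 in dry drops (SD, n = 2 each). Dry and hydrated libraries did not overlap in any of these 5 classes. With 2 libraries against 2, an exact two-sided permutation test cannot give a p below 0.333, and it gave that value for the first gene, the first 10 genes and the first 1000 genes.

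**Figure D2:**
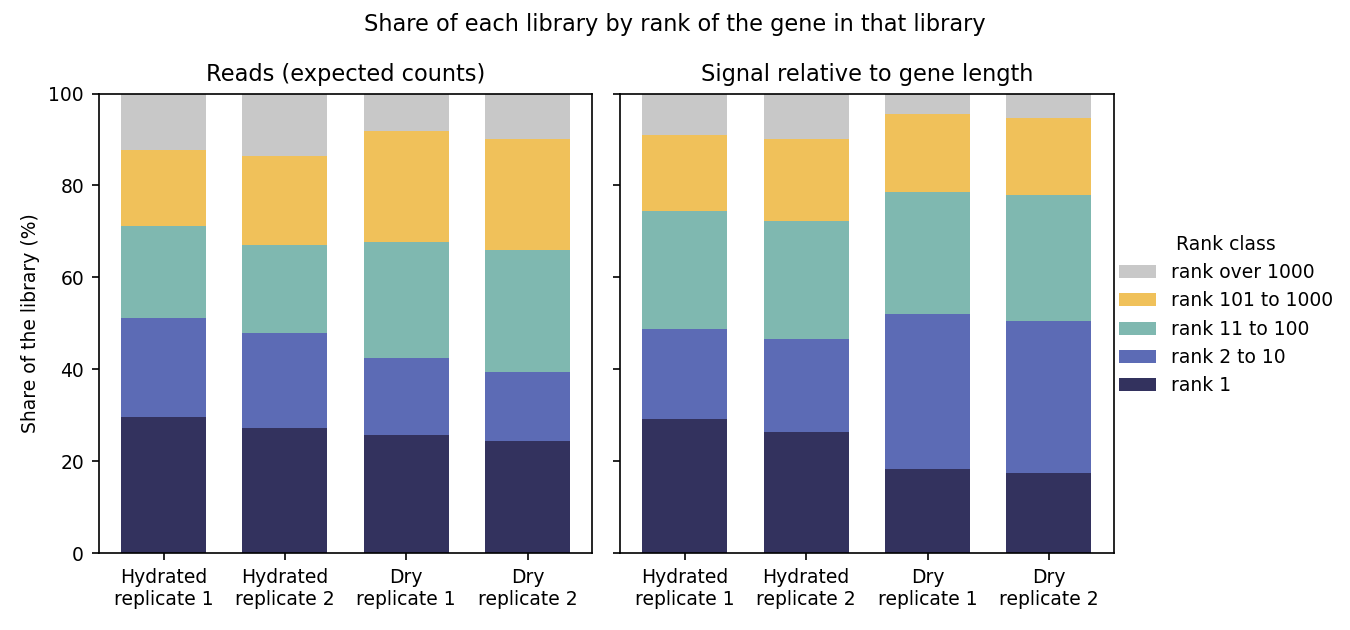
Stacked bars of the share of each library (vertical axis, percent, from 0 to 100) held by genes of 5 rank classes, ordered within each of the 2 hydrated and 2 dry libraries. The left panel uses reads and the right panel the deposited signal, which is relative to gene length; genes below rank 1000 take 12.2% and 13.6% of hydrated and 8.18% and 9.9% of dry reads.

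The change at both ends cancelled in single measures of concentration. The first 100 genes together held 71.1% and 66.9% of the reads in hydrated and 67.7% and 65.9% in dry libraries, which overlap (exact permutation p = 0.667, n = 2 each). The effective number of genes, the exponential of Shannon's entropy, was 153 and 200.4 in hydrated and 189 and 227 in dry libraries, also overlapping (exact permutation p = 0.667, n = 2 each). Counts of genes needed to reach a given share of all reads parted the stages in opposite directions. It took 10 and 13 genes to reach 50% of the reads in hydrated and 21 and 25 in dry libraries. To reach 90% it took 1430 and 1663 genes in hydrated but 784 and 987 in dry libraries. Without the most abundant gene the stages overlapped at 50%, with 48 and 68 genes in hydrated and 65 and 72 in dry libraries (exact permutation p = 0.667, n = 2 each). At 90% they did not, with 2301 and 2460 genes in hydrated and 1113 and 1375 in dry libraries. By signal relative to length the order at 50% turned, with 11 and 14 genes in hydrated and 8 and 10 in dry libraries, while at 90% it was that of the reads, with 812 and 968 in hydrated and 335 and 391 in dry libraries.

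**Figure D3:**
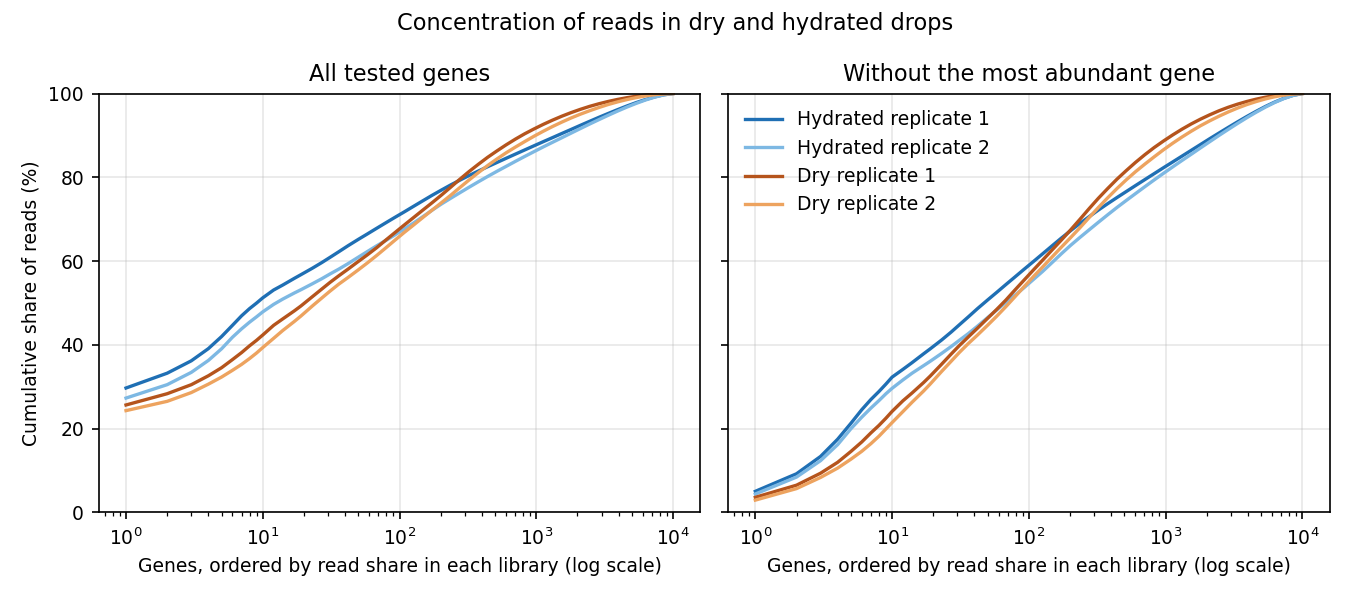
Cumulative share of reads (vertical axis, percent) over genes ordered by read share within each library (horizontal log axis), with all tested genes on the left and without the most abundant gene on the right. The dry curves start below the hydrated ones and end above them: the first 10 genes hold 42.4% and 39.4% of dry against 51.2% and 47.9% of hydrated reads, and the first 1000 hold 91.8% and 90.1% against 87.8% and 86.4%.

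The gene with the highest mean read share in both stages was TRINITY_DN91380_c13_g1. It had 865049 and 690609 counts in hydrated and 520990 and 536349 in dry libraries. Its share of the reads was lower in both dry libraries than in either hydrated one, while its log2 fold change was 0.63 on the TMM scale (SE 0.54, edgeR adjusted p = 0.358) and -0.19 on library totals. It was called on neither scale, and its direction depends on the scale. It was also first by signal relative to gene length in both stages. Of the first 10 genes in the order of reads, this one included, 9 were not called on the TMM scale. Among all 10467 tested genes, 5758 were not called. The log2 fold changes of the 9 lay between 0.13 and 0.79 on that scale. On library totals the direction of all 9 turned, with log2 fold changes of -0.70 to -0.03, and 1 of them was called lower. Together these 9 took 49.9% and 46.6% of the reads in hydrated and 40.7% and 37.8% in dry libraries. The other gene of the 10 was called higher (log2 fold change 0.90, SE 0.31, edgeR adjusted p = 0.0299), with 1.18% and 1.28% of reads in hydrated and 1.28% and 1.32% in dry libraries. On library totals that gene was not called, and its log2 fold change was 0.08.

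Reads gained in dry drops went largely to a small part of the gaining genes. Between the stage means 28.8 points of read share moved from 7632 genes to 2804 genes. Of the gain, the first gene took 4.5%, the first 10 took 22.5% and the first 100 took 60.6%, and 53 genes made up 50% of it. Of the loss, the first gene took 12.2%, the first 10 took 34.3% and the first 100 took 61.3%, with 41 genes making up 50%. Genes called higher held 99.7% of the gain. Of the loss, 34.9% lay in genes called lower and 64.9% in genes that were not called, which include the abundant genes above. These sums use the same libraries as the calls and describe them.

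The ranking by signal relative to gene length, the scale on which genes can be set beside each other, changed at the top as well. Among the first 100 genes, 96 were shared by the hydrated libraries and 94 by the dry ones, against 73 to 77 between single libraries of the stages and 74 between the stage means. In lists of 1000 genes, 894 and 910 were shared within the stages and 559 to 578 between them. Spearman's correlation over all tested genes, which are not independent replicates, was 0.92 within hydrated, 0.89 within dry and 0.58 to 0.61 between stages. The 26 genes that entered the first 100 in dry drops came from a median rank of 285 in hydrated drops. All 26 were called higher, beside 22.7% of all tested genes, but they were picked for their dry level. Together they held 0.898% and 0.965% of the signal in hydrated and 6.32% and 6.05% in dry libraries. The 26 genes that left went to a median rank of 146 and no lower than 473. Of them 2 were called lower, 4 higher and 20 were not called on the TMM scale, beside 22.3% lower and 22.7% higher among all tested genes. These 26 were picked for their hydrated level. Together the 26 that left held 4.42% and 3.98% of the signal in hydrated and 1.83% and 1.78% in dry libraries. The 74 that stayed included 45 called higher and 0 called lower, with a median log2 fold change of 0.99, against -0.28 for all tested genes. They were picked for high levels in both stages, and rises were also frequent in the decile with the most reads (64.3%, median 1.34). With ranks by reads in place of signal, 58 genes were shared by the lists of 100.

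**Figure D4:**
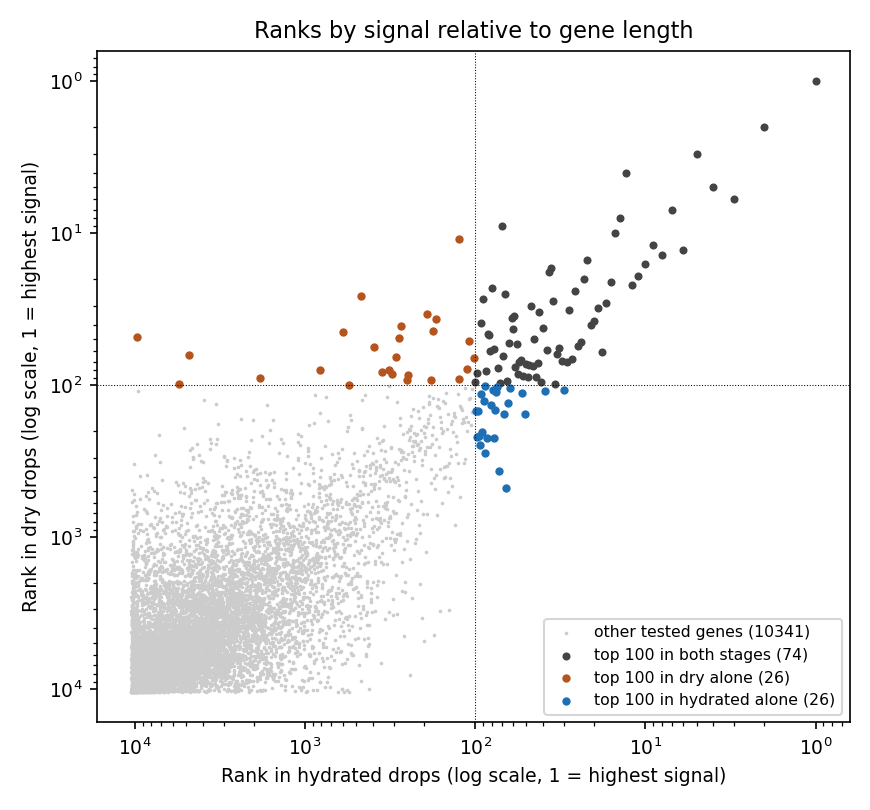
Rank by signal relative to gene length in dry drops (vertical log axis) against that in hydrated drops (horizontal log axis), 1 point for each of the 10467 tested genes, from stage means, with rank 1 at the top right. The 74 genes in the first 100 of both stages are dark, the 26 in dry alone are orange, with hydrated ranks down to 9671, and the 26 in hydrated alone are blue, with dry ranks no lower than 473.

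Very short assembled genes stood at ranks 2, 3, 4 and 10 by signal in dry drops. The same genes stood at ranks 2, 5, 13 and 15 in hydrated drops. The gene at rank 1 in both stages had an effective length of 0.761 relative to the median gene's. The gene at rank 2 held 12.7% and 11.9% of the signal in dry libraries and 4.02% and 3.97% in hydrated ones, but only 0.732% and 0.62% of dry reads. Its effective length was 0.0318 of the median gene's. The gene at rank 3 held 1.72% and 2.77% of the signal in hydrated libraries, 10.4% and 9.15% in dry libraries and 0.598% and 0.475% of the dry reads, with a relative length of 0.0314. The genes at ranks 2 and 3 were called higher, with log2 fold changes of 3.27 and 3.78 (edgeR adjusted p = 3.41e-05 and 2.54e-05). The gene at rank 4 had a relative length of 0.0314 and that at rank 10 one of 0.038. Those at ranks 3 and 4 belong to a single assembly cluster, so reads may be divided between them. The gene at rank 2 also shares its cluster with another assembled gene, so its reads may be divided too. Effective lengths this short make the signal large for few reads. The part of this in the ranking was not tested. On the signal scale ranks 2 to 10 held 19.7% and 20.2% in hydrated and 33.8% and 33.0% in dry libraries, the reverse of their order by reads. Ranks 11 to 100 held 25.7% and 25.7% of the signal in hydrated and 26.5% and 27.4% in dry libraries. The stages overlapped for ranks 101 to 1000, with 16.4% and 17.8% in hydrated and 16.9% and 16.8% in dry libraries. Below rank 1000 both scales had the same order, with 9.43% ± 0.57 of the signal in hydrated and 4.95% ± 0.66 in dry drops (SD, n = 2 each).

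The largest gain of CPM among called genes with no overlap was that of TRINITY_DN54928_c0_g1. It had 655 and 695 counts in hydrated and 32750 and 22629 in dry libraries. Dry libraries were thus far above hydrated ones, with the higher level in dry replicate 1. On the TMM scale it went from 242 ± 16.4 CPM to 23178 ± 10316 CPM (SD, n = 2 each), a log2 fold change of 6.58 (SE 0.69, edgeR adjusted p = 1.26e-05). By signal relative to length it moved from rank 471 to rank 26. The second was TRINITY_DN75512_c0_g3, with 2316 and 1790 counts in hydrated and 21854 and 21402 in dry libraries. On the TMM scale the gene had 815 and 653 CPM in hydrated and 20335 and 15022 CPM in dry libraries. It went from 734 ± 114 to 17678 ± 3757 CPM (SD, n = 2 each), with a log2 fold change of 4.59 (SE 0.44, edgeR adjusted p = 6.28e-06). By signal it moved from rank 124 to rank 11. Neither gene shares its assembly cluster with another gene of the table, and both kept their call in all 14 alternatives.

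Of the genes that entered the first 100 by signal, 4 came from below rank 1000. One, the largest fitted rise among genes with reads in all 4 libraries (picked after its values were seen), had 6 and 5 counts in hydrated and 12427 and 11174 in dry libraries. Its log2 fold change was 12.24 (SE 1.44, edgeR adjusted p = 2.8e-05), and it moved from rank 9671 to rank 48. It had 6 and 18 counts at early desiccation and 2492 and 193 at late desiccation, so the late libraries differed widely from each other. Another 2 genes, of a single assembly cluster, moved from rank 4826 to 63 and from rank 5479 to 99. The first of these had 32 and 20 counts in hydrated and 7013 and 5501 in dry libraries. The other had 52 and 56 in hydrated and 9595 and 8363 in dry libraries. Their log2 fold changes were 9.12 (SE 0.74, edgeR adjusted p = 2.4e-06) and 8.57 (SE 0.63, edgeR adjusted p = 1.95e-06). Reads may be divided between similar sequences of a cluster, so the split between the 2 is uncertain.

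The largest losses of CPM among called genes were smaller than the largest gains. The largest loss of CPM among called genes with no overlap was that of TRINITY_DN65303_c4_g2, with 11470 and 7526 counts in hydrated and 1352 and 1402 in dry libraries. Hydrated replicates differed more from each other than dry ones. The gene fell from 3391 ± 912 to 1121 ± 194 CPM (SD, n = 2 each), with a log2 fold change of -1.60 (SE 0.38, edgeR adjusted p = 0.00504). Its call was kept in 12 alternatives and lost in 2. Without dry replicate 2 the call was lost, with a log2 fold change of -1.45. With only the 4 dry and hydrated libraries the log2 fold change was -1.65 (edgeR adjusted p = 0.000294). The second was TRINITY_DN6519_c0_g3, with 7700 and 5546 counts in hydrated and 799 and 957 in dry libraries. It fell from 2366 ± 485 to 708 ± 50.7 CPM (SD, n = 2 each), with a log2 fold change of -1.74 (SE 0.46, edgeR adjusted p = 0.00881). This call was kept in 10 alternatives and lost in 4. It was lost without hydrated replicate 1 (log2 fold change -1.53), dry replicate 1 (-1.83) or dry replicate 2 (-1.69). With only the 4 dry and hydrated libraries the log2 fold change was -1.80 (edgeR adjusted p = 8.42e-05). Each of these 2 genes shares an assembly cluster with 1 other gene of the table, so their counts may be split.

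The steepest falls were those of other genes. Among genes with reads in all 4 libraries, the largest fitted fall (picked after its values were seen) went from 1447 and 1902 counts in hydrated to 2 and 6 in dry libraries. Its log2 fold change was -7.55 (SE 0.61, edgeR adjusted p = 2.47e-06), and its rank by signal went from 240 to 8135. On the TMM scale it stood at 509 and 694 CPM in hydrated, 20.9 and 21.2 CPM in early, 9.83 and 9.88 CPM in late desiccation and 1.86 and 4.21 CPM in dry libraries. Among falls of at least 16-fold, the largest loss of CPM belonged to a gene with 2857 and 3339 counts in hydrated and 14 and 28 in dry libraries (log2 fold change -6.07, SE 0.47, edgeR adjusted p = 2.03e-06). That gene stood at 1005 and 1218 CPM in hydrated, 336 and 559 CPM in early, 67.5 and 85.9 CPM in late desiccation and 13.0 and 19.7 CPM in dry libraries. The second had 2303 and 2768 counts in hydrated and 11 and 26 in dry libraries (log2 fold change -5.97, SE 0.41, edgeR adjusted p = 1.84e-06). By signal these 2 genes went from ranks 175 and 201 to ranks 4434 and 4829.

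**Figure D5:**
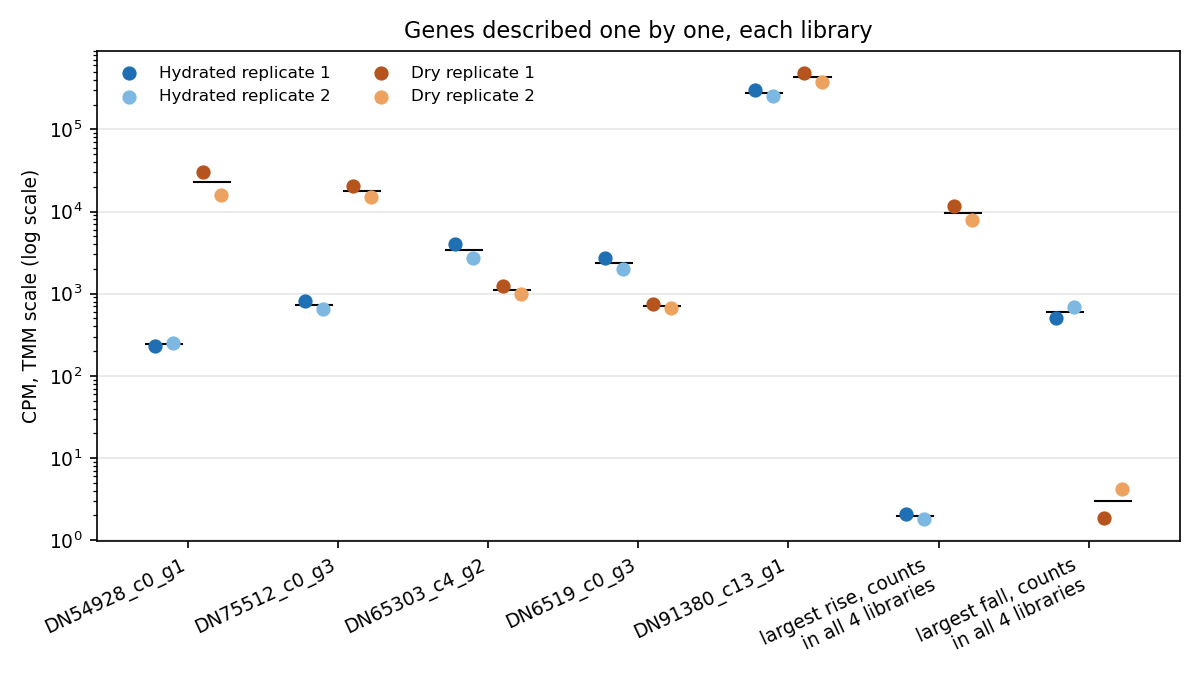
CPM on the TMM scale (vertical log axis) of 7 genes in each of the 2 hydrated (blue) and 2 dry (orange) libraries, with black bars at the stage means. TRINITY_DN91380_c13_g1 was not called, with 304380 and 252000 CPM in hydrated and 484770 and 376470 CPM in dry libraries, while the largest rise goes from 2.11 and 1.82 CPM to 11563 and 7843 CPM.

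Rises and falls were found among assembled genes of every length. Effective length relative to the median gene was taken from the ratio of counts to signal. In the shortest decile (median 0.293) 253 of 1047 genes rose (24.2%) and 171 fell (16.3%), with a median log2 fold change of 0.03. In the longest decile (median 2.47) 333 of 1047 rose (31.8%) and 279 fell (26.6%), with a median of 0.11. Among all tested genes 22.7% rose and 22.3% fell. In the 8 deciles between, the median lay from -0.53 to -0.23. Long genes also had more reads, with a median of 42.6 CPM over the other 6 libraries against 4.97 CPM for the shortest, and the part of read level in this was not tested.

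Where exactly 2 genes of 1 assembly cluster were called, they mostly changed the same way. Clusters with fewer or more calls are left out. Of all called genes, 2379 rose and 2330 fell. In 269 clusters exactly 2 genes were called, and in 236 of them (87.7%) both rose or both fell. In the wider assembly components, which can join unrelated sequences, 370 of 512 such pairs (72.3%) had the same direction. Reads of similar sequences may be split between the genes of a cluster, so the members of a pair are not independent.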

How the data were processed

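Expected counts per assembled gene were taken as deposited by the authors; between 10.1% and 13.7% of the values in the 4 libraries were not whole, as estimates by RSEM are. The second deposited table holds a signal scaled by TMM, per its name; its sums of 864107 to 1935895 in the 4 libraries and its ratio to the counts mark it as relative to gene length. Per the submitters' processing notes, CASAVA 1.4, Trimmomatic 0.35, Bowtie2 2.2, RSEM 1.2.28 and DESeq2 were used, with no order given. How genes were chosen for the tables, and any genome build, are facts not given in the sources here. No column belonged to another sample.

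Counts were rounded and filtered with filterByExpr (minimum count 10, minimum total 15); the 6681 genes removed held 0.155% to 0.422% of the counts of the 4 libraries. All 10 libraries and 5 stages entered 1 quasi-likelihood fit (edgeR 4.0.16 under R 4.3.3) with TMM scaling and no covariate. The fit was tested on simulated data in which few genes changed, as many up as down. Those data could not test the scaling where many genes shift. TMM factors were 0.976 and 1.08 in hydrated and 0.529 and 0.645 in dry libraries, so CPM of dry libraries are raised against those on library totals. Standard errors were computed as the absolute log2 fold change divided by the square root of F. Read shares are shares of the counts of tested genes. Thinning drew reads without replacement (numpy 2.4.6), and exact permutation tests used scipy 1.17.1. Counts carry no molecular identifiers, so depth limits are of counting only.

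The rule for named genes took the 2 largest gains and 2 largest losses of CPM among called genes without overlap between libraries, and the gene with the highest mean read share in each stage where it was not called. Other genes are described by rank. Members, lists and rules were chosen with earlier results of these data known. Alternatives included DESeq2 1.42.0 and limma 3.58.1 on log2 of the deposited signal.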

Additional observations from a re-analysis of the deposited data

How the results depend on the processing

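The 4709 calls, and rises and falls counted separately, stayed within 1.5 times of their number under median-of-ratios size factors, no filter, a filter of 5 CPM in 2 libraries, DESeq2, limma on the deposited signal (pseudocounts 1 and 0.1) and a fit of the 4 libraries alone. Library totals alone moved rises to 1367 and falls to 4176. DESeq2 gave 2222 rises and 1714 falls, and limma with pseudocount 1 gave 1987 and 3078. A minimum of 2-fold left 2677 calls, 1481 rises and 1196 falls. Leaving out 1 library gave 3492 to 3805 calls, 1921 to 2022 rises and 1540 to 1783 falls. The replicate number as a block gave 4715 calls. Deviations of same-numbered libraries correlated at 0.00 to 0.14 over 10 pairs of stages. These values include genes with few reads and cannot tell whether same-numbered libraries share a flask, so pairing by number stays unknown. Of 70 recomputed values for the 5 named genes, 63 kept direction and side of the threshold. TRINITY_DN91380_c13_g1 had a log2 fold change of -0.1904 on library totals, and the 2 named falls had adjusted p of 0.0725 and 0.0692 under the 2-fold minimum. The difference of dry minus hydrated in the share of the first 100 genes, -2.21 points, was 4.8 on the signal scale and -4.28 to -0.14 without 1 library. That in the effective number of genes, 31.3, was -38.7 on the signal scale, -18.0 without the most abundant gene and 7.74 to 54.8 without 1 library; the cause was not tested. The lists of 100 shared 73 to 76 genes without 1 library.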

Other observations

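Outside the comparison, the 2 genes with the largest gains of CPM had these levels in other stages. TRINITY_DN54928_c0_g1 had 411 and 195 CPM at early desiccation, 2140.2 and 633 CPM at late desiccation and 12274 and 8063 CPM after rehydration. TRINITY_DN75512_c0_g3 had 1298 and 746 CPM at early desiccation, 3929 and 2294 CPM at late desiccation and 6452 and 8107 CPM after rehydration. Of the 2 largest losses, TRINITY_DN65303_c4_g2 had 1796 and 1191 CPM at early desiccation, 2770.2 and 3054 CPM at late desiccation and 881 and 426 CPM after rehydration. TRINITY_DN6519_c0_g3 had 1134 and 929.7 CPM, 1682 and 1676 CPM, and 654 and 183 CPM in the same order. Genes below rank 1000 held 15.3% and 18.8% of the reads at early and 15.9% and 17.3% at late desiccation, and 10.8% and 15.6% after rehydration. These values were not tested.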
